A study of Mus musculus with 6 samples.

Results

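The open chromatin of 2 kinds of mouse expanded potential stem cells (EPSCs) was compared through their peak lists from ATAC-seq, an assay in which the Tn5 transposase cuts accessible DNA. EPSCs are grown from embryonic stem cells (ESCs) in media described as widening what the cells can form, and the labels name the recipes after Liu (L-EPSC) and Deng (D-EPSC). All cells were J1 ESCs or J1 cells grown on as EPSCs, so the states differ by medium and not by genotype, and every medium held LIF at 1000 units per mL and the GSK3 inhibitor CHIR99021 at 3 µM. ESCs were kept in serum with the MEK inhibitor PD0325901 at 1 µM. D-EPSC medium was N2B27 with knockout serum replacement (KSR, 5%), dimethindene maleate (2 µM) and minocycline hydrochloride (2 µM), and it held no MEK inhibitor. L-EPSC medium held KSR at 20%, PD0325901 at 1 µM, the SRC family inhibitor A-419259 at 0.3 µM, the tankyrase inhibitor XAV939 at 5 µM, JNK inhibitor VIII at 4 µM and the p38 inhibitor SB203580 at 10 µM. Cultures could be on mouse embryonic fibroblast feeders or on gelatin, and the study's methods state that both EPSC kinds were grown without feeders for several passages before collection. Each state had 2 libraries, which the study calls technical replicates, and 1 pooled list of peaks, so a difference between states has no replicate check, no test is given, and every interval covers counting error only. Since each state was 1 cell line in 1 medium, the medium and the culture cannot be told apart.

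The members were the 96826 peaks of both EPSC lists on chromosomes 1 to 19 and X, out of 125791 peaks when the 28965 of the ESC list are added. A peak was called state-only if no peak of the other EPSC list overlapped it by 1 bp, and shared otherwise. The L-EPSC list held 46601 peaks, of which 12299 (26.4%) were L-EPSC only and 34302 were shared. The D-EPSC list held 50225 peaks, of which 16181 (32.2%) were D-EPSC only and 34044 were shared. The numbers of shared peaks were close, so the difference between the state-only numbers is nearly that between the lengths of the lists. At the edge of this rule, 42 L-EPSC only peaks and 41 D-EPSC only peaks lay within 10 bp of a peak of the other list, and 58 and 56 shared peaks had an overlap of 10 bp or less. Away from the edge, the median gap from a state-only peak to the nearest peak of the other list was 8652 bp for L-EPSC and 10278 bp for D-EPSC, and the median overlap of a shared peak was 334 bp and 336 bp. The lists carry no score or read depth, and whether the other state held signal below the calling threshold at a state-only peak was not tested here. The study itself compared reads in peaks between replicates, with limits on fold change and false discovery rate. It called far fewer regions different between L-EPSC and D-EPSC than there are state-only peaks. A state-only peak is thus a difference between lists, not a tested difference in accessibility.

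In pluripotent cells, promoters of active and many inactive CpG-rich genes stay open across states, while enhancers, which lie farther from genes, open and close with the transcription factors that the cell holds. Naive pluripotent cells rely on factors such as ESRRB, KLF2, KLF4 and TBX3, which LIF and dual inhibition of MEK and GSK3 sustain, and cells that leave the naive state take up OTX2, POU3F1, FOXD3 and the de novo DNA methyltransferases. ERK, downstream of FGF receptors and MEK, drives this exit and induces its own inhibitors of the DUSP, SPRY and SPRED families.

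Starts of pluripotency genes were open in both lists. Peaks lay within 1 kb of a start of Pou5f1, Sox2 and Nanog in both states, and of 16 of 17 naive genes and 9 of 9 core pluripotency genes, beside 59.8% of all coding genes. Such starts were not particular to pluripotency, since 12 of 15 primitive endoderm, 13 of 18 trophoblast and 14 of 22 gastrulation genes had start peaks in both lists too. Of 10 markers of feeder fibroblasts, 1 (Col1a1) had a start peak in both lists, Col1a2, Pdgfrb, Thy1 and Twist2 had one in the D-EPSC list only (3.87% of all coding genes did, and 1.21% in the L-EPSC list only), and Col3a1, Prrx1, Postn, Lum and Dcn had none in either list. The D-EPSC share of this list (40.0%) was the highest of the 30 gene lists. Start peaks of Thy1 and Twist2 were in the ESC list too. The part of fibroblast DNA in the D-EPSC only peaks was not tested.

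The following stretches of 200 bp are examples from state-only distal peaks in mm9 (plus strand, 5′ to 3′). They were chosen near named genes for the motif letters that they hold or lack, so they are not typical. Among the candidate stretches, 17 of 225 for L-EPSC held KLF or ESRRB letters, and 26 of 313 for D-EPSC held TAATCC. Capitals mark matches on either strand to GGGTGTGG (KLF family) or TCAAGGTCA (ESRRB and NR5A2) in the L-EPSC only peaks and to TAATCC (OTX2) in the D-EPSC only peaks. The L-EPSC only peaks come from chr6:140484172-140484371 (an intron of Plekha5, nearest start Aebp2, 86698 bp away), chr16:95957692-95957891 (intergenic, 29846 bp from Ets2), chr9:63589682-63589881 (intron, 9102 bp from the nearest start of Smad3) and chr6:122720549-122720748 (intron of Slc2a3, which encodes a glucose transporter).
Aebp2 L-EPSC only: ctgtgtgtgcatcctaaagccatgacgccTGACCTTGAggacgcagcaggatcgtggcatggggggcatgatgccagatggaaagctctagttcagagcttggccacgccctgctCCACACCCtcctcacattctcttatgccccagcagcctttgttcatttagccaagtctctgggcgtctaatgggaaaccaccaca
Ets2 L-EPSC only: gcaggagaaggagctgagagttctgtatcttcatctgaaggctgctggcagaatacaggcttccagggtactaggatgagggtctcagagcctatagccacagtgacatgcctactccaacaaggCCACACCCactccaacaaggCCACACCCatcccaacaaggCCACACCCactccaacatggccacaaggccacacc
Smad3 L-EPSC only: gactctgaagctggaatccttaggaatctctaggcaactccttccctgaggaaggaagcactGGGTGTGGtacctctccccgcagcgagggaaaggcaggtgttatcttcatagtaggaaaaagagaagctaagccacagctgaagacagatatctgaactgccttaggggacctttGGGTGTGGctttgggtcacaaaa
Slc2a3 L-EPSC only: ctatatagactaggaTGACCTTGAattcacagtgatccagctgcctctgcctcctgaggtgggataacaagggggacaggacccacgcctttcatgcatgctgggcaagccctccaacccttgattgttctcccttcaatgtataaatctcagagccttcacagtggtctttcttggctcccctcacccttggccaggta
The stretch assigned to Aebp2 held 1 match to each motif. Ets2 held 3 KLF matches in a repeated unit, Smad3 held 2 KLF matches, and Slc2a3 held 1 ESRRB match inside a peak of 733 bp that also overlapped an ESC peak. The Slc2a3 stretch also held CCTCTGCCT, a piece by which windows with the B1 repeat were left out in a check given below. The other 3 had no ESC peak. By the way they were chosen, none of these 4 held TAATCC. The nearest D-EPSC peak was 4829 to 31002 bp away.

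The D-EPSC only stretches come from chr14:49373393-49373592 (intergenic, 86174 bp from Otx2), chr11:99110718-99110917 (intergenic, 5419 bp from Krt222), chr11:118412811-118413010 (intron of Rbfox3) and chr5:64583717-64583916 (intron of Tbc1d1).
Otx2 D-EPSC only: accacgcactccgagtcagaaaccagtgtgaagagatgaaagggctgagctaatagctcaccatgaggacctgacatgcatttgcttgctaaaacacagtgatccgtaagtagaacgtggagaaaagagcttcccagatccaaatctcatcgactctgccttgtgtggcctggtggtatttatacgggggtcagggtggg
Krt222 D-EPSC only: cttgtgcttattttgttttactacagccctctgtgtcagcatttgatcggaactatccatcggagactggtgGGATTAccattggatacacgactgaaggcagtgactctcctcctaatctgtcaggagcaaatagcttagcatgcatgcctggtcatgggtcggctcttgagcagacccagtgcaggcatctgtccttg
Rbfox3 D-EPSC only: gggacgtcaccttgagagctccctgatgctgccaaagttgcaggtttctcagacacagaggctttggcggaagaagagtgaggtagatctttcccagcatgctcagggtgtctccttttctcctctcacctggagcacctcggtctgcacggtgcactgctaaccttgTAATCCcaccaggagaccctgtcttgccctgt
Tbc1d1 D-EPSC only: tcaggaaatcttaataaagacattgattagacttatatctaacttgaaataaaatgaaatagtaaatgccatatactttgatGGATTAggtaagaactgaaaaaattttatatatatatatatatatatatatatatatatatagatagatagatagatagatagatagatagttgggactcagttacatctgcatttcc
The Otx2 stretch is the middle of the widest D-EPSC only peak near that gene (1134 bp), and it held none of the 3 motifs. Each of the others held 1 match to TAATCC and, by the way they were chosen, no match to the KLF or ESRRB letters. None of the 4 peaks overlapped an ESC peak, and the nearest L-EPSC peak was 4918 to 43276 bp away.

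State-only peaks of both kinds were mostly distal and narrow. Of the L-EPSC only peaks, 600 (4.88%, 95% Wilson interval 4.51 to 5.27) had their midpoint within 1 kb of a coding start, 43.8% lay in introns, 45.9% were intergenic and 5.33% were in other exons. Of the D-EPSC only peaks, 1441 (8.91%, 8.48 to 9.35) lay within 1 kb of a start, 39.1% in introns, 46.6% between genes and 5.31% in other exons. The proximal share thus differed most relative to its size, but with a reciprocal overlap of 50% as the rule it was 12.1% and 13.1%, nearly equal. By contrast, 37.7% of the shared peaks of the L-EPSC list and 37.6% of those of the D-EPSC list lay at starts. The median width was 218 bp (quartiles 146 and 333) for L-EPSC only and 223 bp (149 and 360) for D-EPSC only, against 437 and 466 bp for the shared peaks of the respective lists. In all, L-EPSC only peaks covered 3273 kb and D-EPSC only peaks 4539 kb.

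L-EPSC only peaks were more often open in ESCs. An ESC peak overlapped 16.0% of them (15.4 to 16.7), against 9.57% (9.12 to 10.0) of the D-EPSC only peaks and 63.5% and 63.8% of the shared peaks in the L-EPSC and D-EPSC lists. With a reciprocal overlap of 50% as the rule for state-only, these shares were 26.8% and 20.9%. In the distal peaks the shares were 16.1% (15.5 to 16.8) of 11699 and 9.29% (8.84 to 9.77) of 14740. For peaks with their midpoint at a start the intervals overlapped, with 14.5% (11.9 to 17.5) of 600 and 12.4% (10.8 to 14.2) of 1441. Distal L-EPSC only peaks had a median GC content of 49.5%, and distal D-EPSC only peaks 51.5%, over 400 bp around the midpoint.

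**Figure D1:**
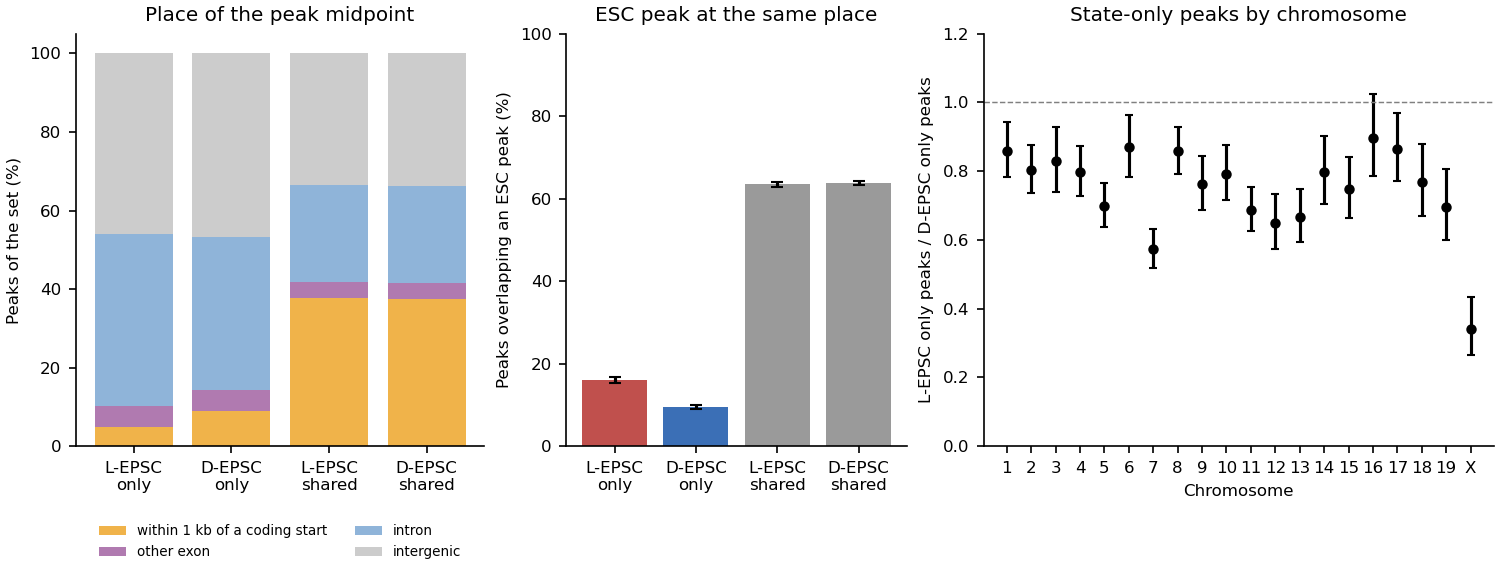
Left, stacked bars give the place of the peak midpoint as a percentage of each set; middle, bars give the percentage of each set that overlaps an ESC peak, with 95% Wilson intervals; right, points give the number of L-EPSC only peaks divided by the number of D-EPSC only peaks on each chromosome, with exact 95% intervals and a dashed line at equality. State-only peaks are mostly intronic or intergenic, an ESC peak is present at 16.0% of L-EPSC only and 9.57% of D-EPSC only peaks, and chromosome X has the lowest ratio, 0.341.

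Chromosome X held few L-EPSC only peaks. There were 90, against 264 D-EPSC only peaks, a ratio of 0.341 (exact 95% interval 0.265 to 0.435), while the autosomes ranged from 0.573 (0.519 to 0.633) on chromosome 7 to 0.897 (0.786 to 1.02) on chromosome 16 and stood at 0.767 together. Of 927 X-linked coding genes, 8 had a start peak in the L-EPSC list only and 66 in the D-EPSC list only (0.863% and 7.12%), against 1.22% and 3.73% of 21275 autosomal genes. Peaks that ESCs already had on X had like shares in both EPSC states. The L-EPSC list overlapped 84.5% (81.2 to 87.3) and the D-EPSC list 85.9% (82.8 to 88.6) of the 547 ESC peaks there.

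At gene starts the D-EPSC list held more that the other list lacked. Of 22202 coding genes, 13270 (59.8%) had a peak with an edge within 1 kb of a start (a start peak) in both EPSC lists and 7804 in neither. A start peak was in the L-EPSC list only at 268 genes (1.21%) and in the D-EPSC list only at 860 genes (3.87%), so that the D-EPSC count was 3.21 times the L-EPSC count (exact 95% interval 2.79 to 3.69). With the widest peaks at equal list length it was 2.61 times (793 against 304). With a start window of 2.5 kb it was 2.55 times (886 against 347), so both values fell below that interval. The peaks themselves were state-only at 257 of the 268 and at 825 of the 860, and at the remaining genes a shared peak reached into the window in 1 state only. Start peaks of this kind were narrow, with a median of 262.5 bp in the L-EPSC list and 332 bp in the D-EPSC list, against 698 bp in the L-EPSC list where both lists had a peak. ESCs had a start peak at 60 (22.4%, 17.8 to 27.7) of the 268 and at 118 (13.7%, 11.6 to 16.2) of the 860 genes.

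The widest L-EPSC only start peak, of 1323 bp, lay at Ptf1a (chr2:19367290-19369128), which encodes a basic helix-loop-helix factor of pancreas and cerebellum. It overlapped an ESC peak, and the nearest D-EPSC peak was 6485 bp from the start. Ephx3, which encodes an epoxide hydrolase, had 1019 bp, and Pglyrp1, which encodes a peptidoglycan recognition protein, had 987 bp. The pioneer factor gene Foxa1 and the lysolipid transporter gene Mfsd2a each had 679 bp. Of the 10 genes with the widest such peaks, 6 had an ESC start peak: Ptf1a, Ephx3, Pglyrp1, Accsl, Mfsd2a and Syt15. The ranking covered the 205 single-list genes whose start peaks were all L-EPSC only, with clone names left out.

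Among D-EPSC only start peaks the widest, of 1780 bp, lay at Hoxc11 (chr15:102784858-102788139), a posterior Hox gene, with the nearest L-EPSC peak 10843 bp from the start. Igdcc4, which encodes an immunoglobulin superfamily receptor, had 1582 bp and Shank1, which encodes a scaffold protein of excitatory synapses, had 1298 bp. Stc1, which encodes the hormone stanniocalcin, had 1191 bp, and no L-EPSC peak lay within 145753 bp of its start. ESC start peaks were present at 3 of the 10 widest, Sncaip, Sept6 and Gramd1a, in a ranking of 703 genes by the same rule.

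Genes of pluripotency, signalling and metabolism mostly had open starts in both states. Of 30 gene lists, 10 had no member with a start peak in a single EPSC list, and these were naive and core pluripotency, LIF and Stat3 signalling (14 genes), JNK, p38 and SRC kinases (23 genes), other targets of the compounds in the media (14 genes), DNA methylation (15 genes), Polycomb (20 genes), translation initiation (13 genes), glycolysis (20 genes) and the TCA cycle (22 genes). In 17 lists more members had a D-EPSC than an L-EPSC single-list start peak, in 2 the reverse held, and in the other tied list, FGF and ERK feedback, the counts were 2 and 2. Since the whole gene set leans to D-EPSC, such a count is to be read against 1.21% and 3.87%.

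**Figure D2:**
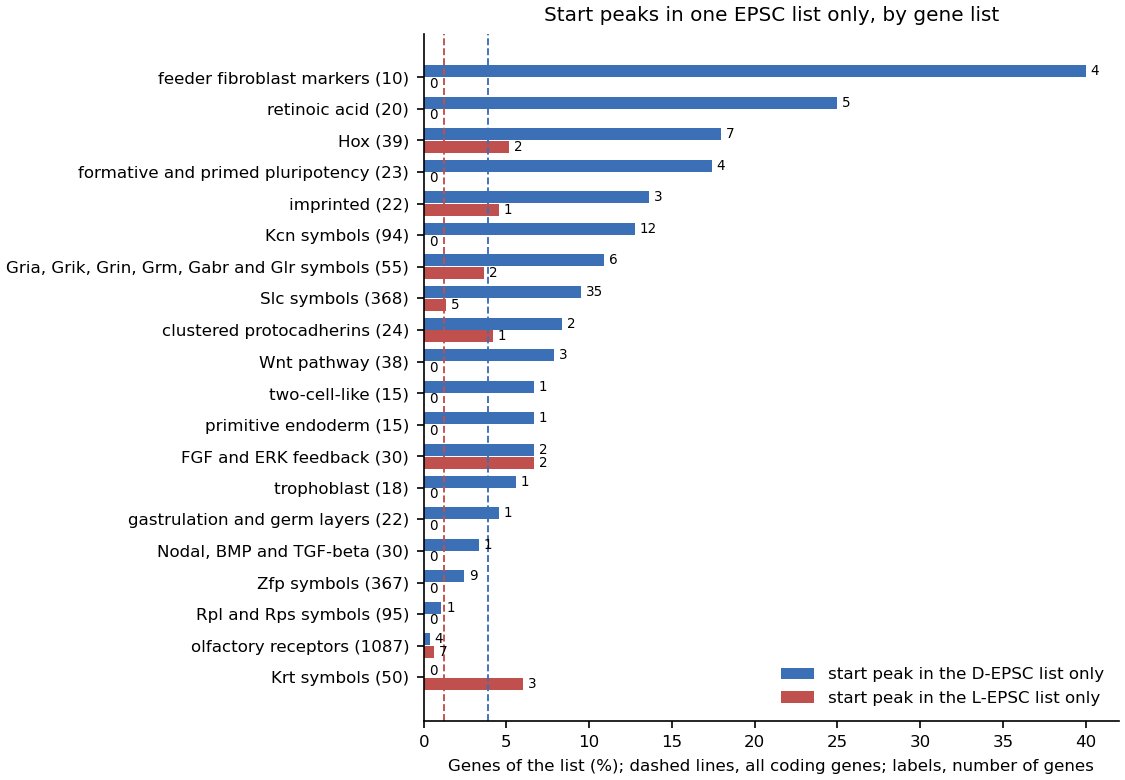
Bars give the percentage of the genes of each list with a start peak in the D-EPSC list only (blue) or the L-EPSC list only (red), with the number of genes at each bar, list sizes in brackets and dashed lines at the 3.87% and 1.21% of all coding genes. Lists with no such gene are left out. Retinoic acid genes, Hox genes and formative genes have the tallest D-EPSC shares after the fibroblast markers, and genes with Krt symbols (keratins) number 3 for L-EPSC and 0 for D-EPSC. With a window of 2.5 kb, Cyp26a1 and Cyp26c1 (retinoic acid), Hoxb7 and Hoxc6 (Hox) and Foxd3, Grhl2 and Lefty1 (formative) drop out. Krt17 drops out of the keratin count too.

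Among 23 genes of formative and primed pluripotency, 17 had start peaks in both lists, none in the L-EPSC list only and 4 (17.4%) in the D-EPSC list only. These were Foxd3 and Grhl2, which encode factors that open enhancers in early epiblast-like cells, Lefty1, which encodes an inhibitor of Nodal, and Sox3, which encodes an X-linked SOX factor. Sox3 (chrX:58144545-58146605) had 2 D-EPSC start peaks, up to 1108 bp wide, and no L-EPSC peak within 345074 bp. The other 3 lay close to the limit of the window. The nearest L-EPSC peak was 1073 bp from the Foxd3 start, 1284 bp from Grhl2 and 1054 bp from Lefty1, and the D-EPSC peak of Foxd3, 1581 bp wide, was a shared peak.

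Genes of the retinoic acid pathway had 5 of 20 (25%) D-EPSC single-list starts and 0 L-EPSC ones. They were Rxra, which encodes the partner receptor of RAR, Crabp2 and Rbp4, which encode carriers of retinoic acid and retinol, and Cyp26a1 and Cyp26c1, which encode enzymes that degrade retinoic acid. Rbp4 (chr19:38191110-38199811) had a D-EPSC start peak of 1041 bp and the nearest L-EPSC peak 27177 bp away. At Rxra the D-EPSC peak was 408 bp wide and the L-EPSC distance 7112 bp, and at Crabp2 these were 440 bp and 3527 bp. The L-EPSC distance was 1757 bp at Cyp26a1 and 1536 bp at Cyp26c1, where the D-EPSC peak was a shared one. No ESC start peak was listed at any of these 5.

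Ligands of the FGF and Wnt families were the single-list members of their pathways. In the FGF and ERK list (30 genes) the L-EPSC list alone had start peaks at Fgf3 (433 bp) and Fgf17 (254 bp), and the D-EPSC list alone at Fgf8 (136 bp) and Fgf10 (1074 bp). Of these, Fgf3 and Fgf10 had an ESC start peak. In the Wnt list (38 genes) the D-EPSC list alone had peaks at Wnt1 (123 bp), Wnt5a (199 bp) and Wnt6 (248 bp), all narrow. In the Nodal, BMP and TGF-beta list (30 genes) Lefty1 was the single such gene. The D-EPSC shares were 6.67% (1.85 to 21.3) for FGF, 7.89% (2.72 to 20.8) for Wnt and 3.33% (0.591 to 16.7) for Nodal. All 3 intervals held the 3.87% of all coding genes, so these shares cannot be told from it. The L-EPSC share for FGF was also 6.67%, from 2 genes, beside 1.21% of all coding genes.

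Hox genes, which set position along the body axis, had 7 of 39 D-EPSC and 2 of 39 L-EPSC single-list starts. The D-EPSC genes were Hoxa10, Hoxb1, Hoxb7, Hoxc5, Hoxc6, Hoxc9 and Hoxc11, and their peaks were 117 to 1780 bp wide. At Hoxc6 the peak was a shared one. The L-EPSC genes were Hoxb5, with a peak of 124 bp, and Hoxd4, with one of 262 bp. None of these 9 had an ESC start peak. Of 22 imprinted coding genes, Igf2, Magel2 and Phlda2 were D-EPSC single-list genes and Dlk1, a Notch ligand homologue, was an L-EPSC one with a peak of 156 bp. Next to Dlk1, the maternally expressed non-coding gene Meg3 had a start peak in the L-EPSC list alone, and the body of Rian held 3 D-EPSC only peaks and no L-EPSC peak.

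Markers of other lineages gave 1 single-list start in each list, and with so few genes the D-EPSC shares of 4.55% to 6.67% cannot be told from the 3.87% of all coding genes. The D-EPSC list alone had start peaks at Sp110 among 15 genes of the two-cell-like state, Cdh3 among 18 trophoblast genes, and Foxa2, an endoderm pioneer factor, among 15 primitive endoderm genes and 22 gastrulation genes. The L-EPSC list alone had none in these 4 lists. Foxa2 had 2 D-EPSC only peaks, up to 528 bp wide, and the nearest L-EPSC peak was 1503 bp from its start. Of the two-cell-like genes, 11 had no start peak in either EPSC list, among them Zscan4c, Zscan4d and Zscan4f, and the Zscan4 genes are near-identical copies, at which peaks are uncertain.

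Away from starts, state-only peaks were assigned to the nearest coding start within 100 kb. At least 1 distal L-EPSC only peak was assigned to 6174 genes (27.8%), and at least 1 distal D-EPSC only peak to 7409 genes (33.4%). In total 9830 L-EPSC only and 12344 D-EPSC only peaks were assigned, a ratio of 0.796 (exact 95% interval 0.775 to 0.818), and 1869 and 2396 lay farther out. The difference in favour of a state reached 5 peaks at 35 genes for L-EPSC and at 86 genes for D-EPSC.

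Aebp2 (chr6:140570970-140626993), which encodes an accessory subunit of Polycomb repressive complex 2, had the largest difference towards L-EPSC, with 11 L-EPSC only and 0 D-EPSC only distal peaks beside 4 shared ones. Its state-only peaks were 118 to 781 bp wide, 4 of the 11 lay within the gene, and 2 overlapped an ESC peak. Dst, which encodes a cytoskeletal linker, had 11 and 1, and all 11 lay within the gene. Ncor1 (chr11:62129928-62272043), which encodes a nuclear receptor corepressor, had 7 and 0, and all 7 lay within the gene. Bcat1, which encodes the cytosolic branched-chain aminotransferase, had 8 and 2, and the 100 kb around it (chr6:144900001-145000000) was the window with the largest L-EPSC excess, 7 against 0. The remaining L-EPSC genes were 4930533K18Rik (9 and 0), Zbtb7c (10 and 3), Ctdspl (8 and 1), Wdfy3 (9 and 3), Dclk2 (8 and 2) and Macf1 (8 and 2).

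On the D-EPSC side, Camta1, which encodes a calmodulin-binding transcription activator and spans 802 kb, had 19 D-EPSC only and 5 L-EPSC only peaks. Rbfox3, which encodes the neuronal splicing factor NeuN, had 12 and 1, and Maml3, which encodes a Notch coactivator, had 10 and 0, and both were also D-EPSC single-list genes at their starts. Grm4, which encodes a metabotropic glutamate receptor, had 9 and 1, and the window chr17:27600001-27700000 over Grm4 and Hmga1 held 9 D-EPSC only peaks against 1. Wdr25 had 9 and 0, of which 3 overlapped an ESC peak, and its neighbour Begain held a D-EPSC only peak of 1520 bp. Zfp608 (9 and 0), Epb4.1l4b, Gm11733 and Nav2 (8 and 0 each) and Tbc1d1 (13 and 6) completed the 10. Many of these genes in both sets are long, and the counts were not scaled by length.

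Counted in fixed windows of 100 kb, state-only peaks of L-EPSC alone were found in 3210 windows, of D-EPSC alone in 4929 and of both in 4619. A difference of at least 5 peaks was reached in 42 windows for L-EPSC and in 90 for D-EPSC. After the Bcat1 window, the largest L-EPSC differences (7 against 1) lay over Tiam1, Rab31 and Zfp64 and over Dlgap3 with Zmym6. After the Grm4 window, the D-EPSC ones lay over Ccdc40 and Tbc1d16 (8 against 0), and over Dot1l, Begain with Wdr25, and Phf2 (7 against 0 each).

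**Figure D3:**
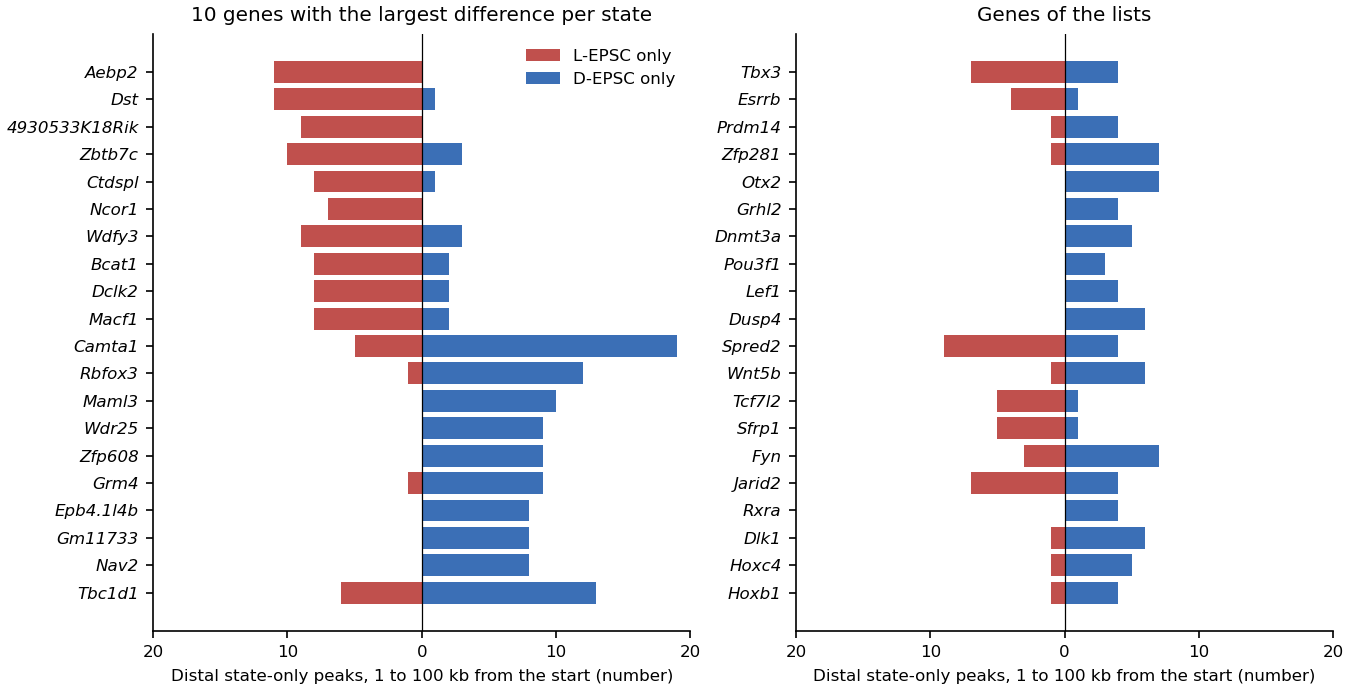
Bars to the left give the number of distal L-EPSC only peaks and bars to the right the number of distal D-EPSC only peaks assigned to each gene, for the 10 genes with the largest difference in each state (left panel) and for 20 genes of the lists (right panel). Aebp2 has 11 and 0, Camta1 5 and 19, Spred2 9 and 4, and Otx2 0 and 7.

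The formative list had the lowest ratio among the lists. Its 23 genes had 9 L-EPSC only and 39 D-EPSC only distal peaks, a ratio of 0.231 (exact 95% interval 0.0983 to 0.484) beside 0.796 for all genes, and 63 shared peaks in the L-EPSC list. Otx2 (chr14:49277354-49287319), which encodes the factor that redirects enhancers on exit from the naive state, had 7 D-EPSC only peaks, 122 to 1134 bp wide, 0 L-EPSC only and 4 shared ones, and its start peak was shared. Dnmt3a, which encodes a de novo DNA methyltransferase, had 5 D-EPSC only and 0 L-EPSC only peaks, Grhl2 had 4 and 0, Lef1, which encodes a Wnt effector, had 4 and 0, and Pou3f1 and Dnmt3b had 3 and 0 each. Foxd3 went the other way, with 4 L-EPSC only and 0 D-EPSC only distal peaks.

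The naive genes had similar numbers from both states. The 17 naive genes had 30 L-EPSC only and 27 D-EPSC only distal peaks, a ratio of 1.11 (0.638 to 1.94) whose interval held the 0.796 of all genes. Tbx3 (chr5:120120678-120134733) had 7 and 4 and Esrrb (chr12:87702067-87862578) had 4 and 1, while Prdm14, which encodes a repressor of the exit from the naive state, had 1 and 4. The 9 core genes had 8 and 16 peaks, and 7 of the 16 were at Zfp281 (chr1:138521478-138526630), which encodes a zinc finger factor of the core network, against 1 L-EPSC only peak there.

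In the signalling lists the lean varied by gene. Dusp4 (chr8:35870351-35882948), which encodes an ERK phosphatase, had 6 D-EPSC only and 0 L-EPSC only distal peaks, and Spry1, which encodes a receptor tyrosine kinase antagonist, had 4 and 1. Spred2 (chr11:19824378-19924029), another inhibitor of RAS and ERK, had 4 D-EPSC only and 9 L-EPSC only peaks. The FGF and ERK list as a whole had 28 L-EPSC only and 43 D-EPSC only peaks, and its ratio of 0.651 (0.390 to 1.07) overlapped that of all genes. The 38 Wnt genes had 43 and 72, a ratio of 0.597 (0.400 to 0.883) whose interval also held the 0.796 of all genes. The ligand gene Wnt5b had 6 D-EPSC only and 1 L-EPSC only peaks, Znrf3, which encodes a ubiquitin ligase that removes Wnt receptors, had 5 and 2, and the antagonist gene Dkk4 had 4 and 0. The effector gene Tcf7l2 and the antagonist gene Sfrp1 each had 5 L-EPSC only and 1 D-EPSC only peaks. Fyn, which encodes a SRC family kinase, had 7 D-EPSC only and 3 L-EPSC only peaks.

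Hox genes had 7 L-EPSC only and 29 D-EPSC only distal peaks, a ratio of 0.241 (0.0893 to 0.563). Retinoic acid genes had 17 and 29, a ratio of 0.586 (0.302 to 1.1) whose interval also held the value of all genes, and Rxra had 0 and 4 of them, while Dhrs3, which encodes a retinaldehyde reductase, had 4 and 1. Polycomb genes had 19 and 19, of which Jarid2, which encodes an accessory subunit of the repressive complex, had 7 L-EPSC only and 4 D-EPSC only. Glycolysis (18 and 14) and TCA cycle (12 and 9) genes had slightly more L-EPSC only peaks, with ratios of 1.29 and 1.33 whose intervals reached from 0.604 to 2.79 and from 0.516 to 3.58.

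**Figure D4:**
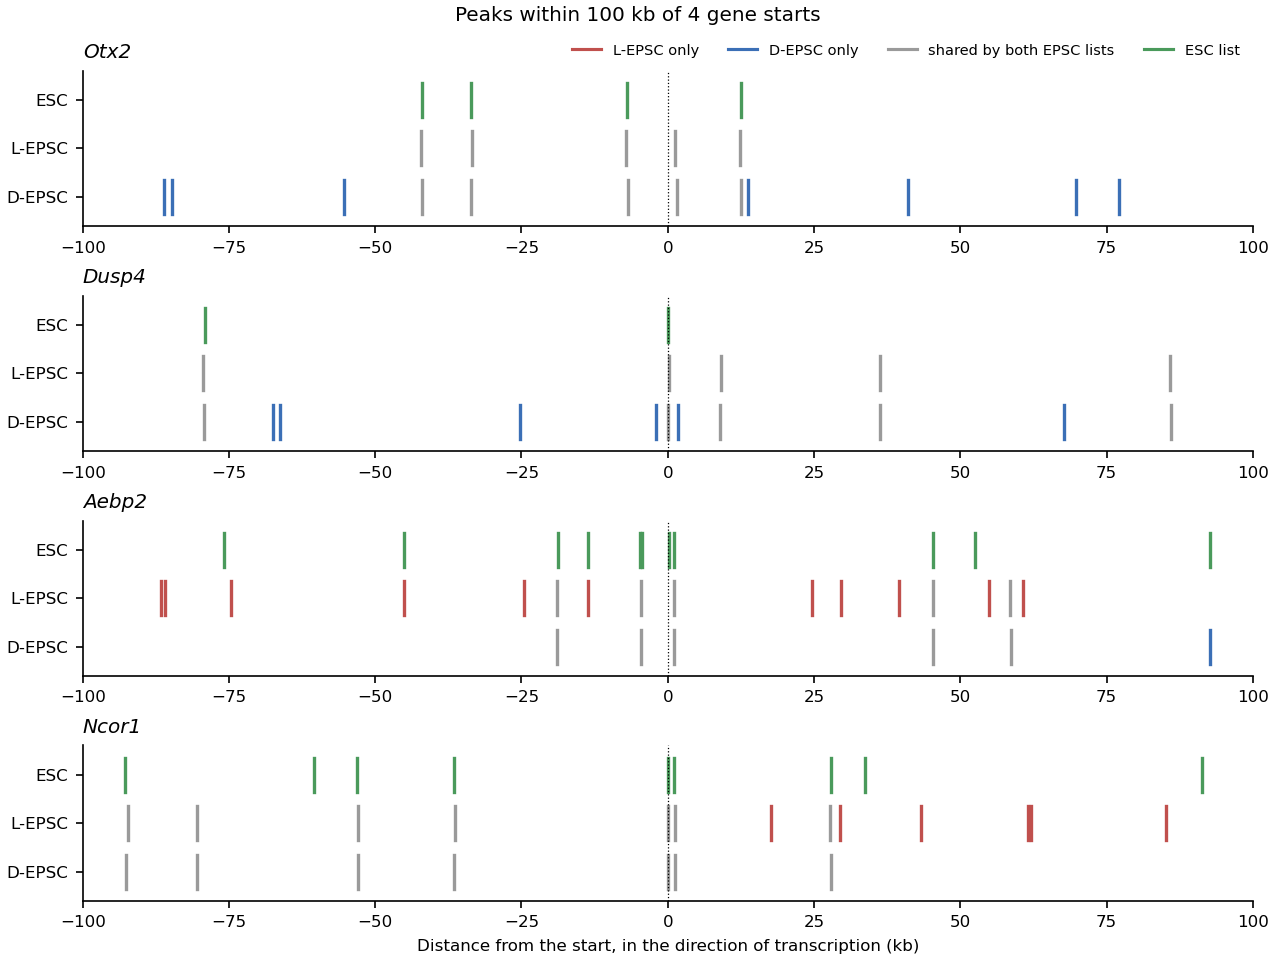
Vertical ticks mark peak midpoints within 100 kb of the gene start, by distance in the direction of transcription (kb), in the ESC (green), L-EPSC and D-EPSC lists, with shared EPSC peaks in grey, L-EPSC only in red and D-EPSC only in blue. Around Otx2 there are 7 D-EPSC only and 0 L-EPSC only peaks, around Dusp4 6 and 0, around Aebp2 1 and 11, and around Ncor1 0 and 6.

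The loci drawn show how far these peaks spread. D-EPSC only peaks flanked Otx2 on both sides and all 7 lay outside the span of its 5 shared peaks, while at Dusp4 they lay among 5 shared peaks. Within 100 kb of the 5′ end of Aebp2 the ESC list held 11 peaks, more than the 6 of the D-EPSC list.

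Motif letters differed between the distal sets. KLF letters were found in 9.60% (9.08 to 10.1) of 11699 distal L-EPSC only peaks and in 5.06% (4.72 to 5.43) of 14740 distal D-EPSC only peaks, within 400 bp around the midpoint. The same letters reversed, which keep the base composition, were found in 4.34% and 3.87%, and shared distal peaks of the L-EPSC list stood between the sets at 7.18%. ESRRB letters were in 2.62% (2.35 to 2.93) and 1.08% (0.924 to 1.26), with 0.598% and 0.488% when reversed and 1.85% in the shared peaks. Over all peaks of a list, starts included, the shares were 7.11% (KLF) and 1.62% (ESRRB) in the L-EPSC list and 5.84% and 1.19% in the D-EPSC list. TEAD letters (GGAATG) were in 26.0% (25.2 to 26.8) and 22.0% (21.4 to 22.7), with 13.5% and 12.8% when reversed. Shared distal peaks held them at 22.9% in the L-EPSC list and 23.3% in the D-EPSC list, so the D-EPSC only set lay below its shared peaks. All peaks, starts included, held them at 20.7% and 20.0%.

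NRF1 letters, which are rich in CG, were rare, in 66 (0.564%, 0.444 to 0.717) of the L-EPSC only and 41 (0.278%, 0.205 to 0.377) of the D-EPSC only distal peaks. Shared distal peaks held them at 1.22% in the L-EPSC list and 1.14% in the D-EPSC list. All peaks, starts included, held them at 3.26% and 2.92%.

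Among the other letters, OTX2, ZIC and TFAP2 were more frequent in D-EPSC only peaks. OTX2 letters were in 11.7% (11.1 to 12.3) of the distal L-EPSC only and 13.7% (13.1 to 14.2) of the D-EPSC only peaks, against 10.7% and 11.2% when reversed, so they stood little above composition. All peaks of the lists held them at 9.46% and 10.1%. ZIC letters (CAGCAGG) were in 19.8% and 21.6%, beside 22.8% of the shared distal peaks of the D-EPSC list. TFAP2 letters (GCCNNNGGC) were in 12.2% and 15.0%, beside 16.7% of those shared peaks, so for both the state-only sets lay below the shared peaks. The AP-1 letters (TGANTCA) were at 13.1% in both sets, and the octamer ATGCAAAT of POU5F1 was at 2.91% and 3.09% with overlapping intervals. Some matches can overlap, as the KLF and SP families read similar letters, and a match is no evidence of binding.

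The lean of the KLF and ESRRB letters to L-EPSC was present both at peaks with an ESC peak and at peaks without one. In distal L-EPSC only peaks with an ESC peak, KLF letters were in 10.6% (9.25 to 12.0) of 1885, and in those without one in 9.42% (8.85 to 10.0) of 9814. The D-EPSC only values were 4.45% (3.48 to 5.68) of 1370 and 5.12% (4.76 to 5.51) of 13370. ESRRB letters followed the same order, at 3.50% and 2.46% against 1.09% and 1.08%.

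**Figure D5:**
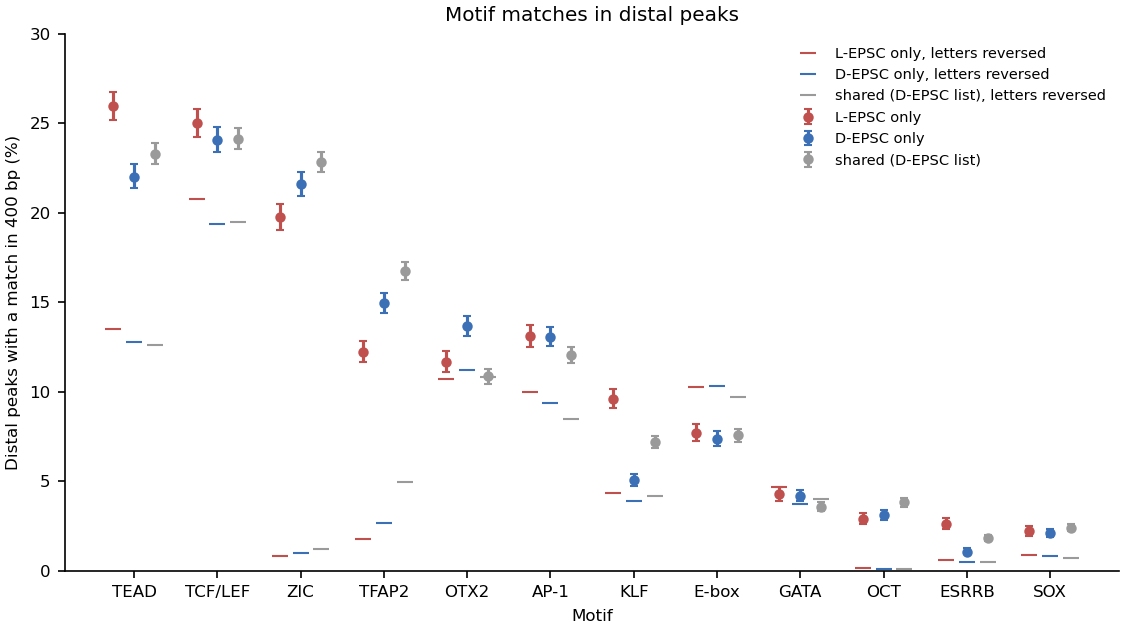
Points give the percentage of distal peaks with a match in 400 bp around the midpoint, with 95% Wilson intervals, for L-EPSC only (red), D-EPSC only (blue) and shared peaks of the D-EPSC list (grey); short dashes give the same for the reversed letters. KLF is at 9.60% and 5.06%, ESRRB at 2.62% and 1.08%, and OTX2 at 11.7% and 13.7% in the L-EPSC only and D-EPSC only sets.

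Shared peaks also differed a little in width. Among 33013 shared peaks matched 1 to 1, the median log2 ratio of L-EPSC to D-EPSC width was -0.05 (95% interval of the median -0.05 to -0.04). It was -0.07 at starts, where the L-EPSC peak was the wider in 40.5% of 12284 pairs, and -0.02 elsewhere, where it was wider in 48.6% of 20729. At Hoxb9 the L-EPSC start peak was 1391 bp and the D-EPSC one 152 bp, and at Eya4, which encodes a transcriptional coactivator, they were 118 and 1769 bp. Rftn1, Fam184b, Fndc7 and Rem2 followed on the L-EPSC side, with widths of 1048 to 1337 bp against 167 to 211 bp, and Tspo, Wfdc2, Sync and Arpp21 on the D-EPSC side, with 121 to 130 bp against 1135 to 1707 bp.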

How the data were processed

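ATAC-seq libraries of ESCs, D-EPSCs and L-EPSCs were prepared by the authors from J1 cells in technical replicates, aligned to mm9 with Bowtie2 2.3.5, filtered with SAMtools 1.10 and called with MACS at default settings. The deposited unit is a position: each list gives the chromosome, start and end of a peak in bases, with no score, count or depth, and how the replicates were combined is not given in the sources used here. So the depth behind a peak is unknown. A deeper library can give a longer list, and this was not tested.

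Overlaps, distances and motif matches were computed with Python 3.11.15, pandas 2.3.3, scipy 1.17.1 and pysam 0.24.0, on the mm9 genome (NCBIM37) and the GENCODE M1 annotation, and checked on simulated intervals and against bedtools 2.31.1. Peaks off chromosomes 1 to 19 and X were left out. A start is that of a protein-coding transcript, over 22202 symbols. Peaks with their midpoint within 1 kb of it are proximal, others distal and assigned to the nearest start within 100 kb. A gene has a start peak where any base of a peak lies within 1 kb, so a wide start peak can be distal by its midpoint. Windows of 100 kb were counted too. Letters of 18 motifs were searched on both strands in 400 bp. The spacing of the joint OCT-SOX motif was corrected after its initial value was seen, and its share is not reported. Intervals are 95% Wilson intervals for shares, exact for ratios.

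The members and the 30 gene lists were chosen with earlier results of these data known. Genes named are list members with a single-list start, up to 4 others per list, the 10 widest single-list starts, the 10 largest distal differences, and the extreme windows, peaks and width ratios per state. Sfrp1, Dnmt3b and the fibroblast markers beyond this number were named after their values were seen. Of the listed symbols, 6 were matched through older names and 6 (Sox1, H19, Meg3, Rian, Mirg, Kcnq1ot1) are not coding genes in this annotation. RefSeq promoter sequences lie on another build and were not used.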

Additional observations from a re-analysis of the deposited data

How the results depend on the processing

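Of 12 comparisons between the EPSC states, the order of L-EPSC and D-EPSC was kept in 45 of 45 alternative values, although many shares moved beyond their counting interval. Motifs in these comparisons were KLF, ESRRB, OTX2, TEAD, TFAP2 and ZIC, and those with near-equal shares, such as AP-1, were not included. Every setting reused the same pooled lists, so the count is no independent check. With peaks of at least 300 bp, L-EPSC only and D-EPSC only peaks numbered 3731 and 5476, and the KLF share was 10.4% and the ESRRB share 2.96% in L-EPSC, with the OTX2 share 10.8%. A reciprocal overlap of 50% gave 20462 L-EPSC only peaks, proximal shares of 12.1% (L-EPSC) and 13.1% (D-EPSC), nearly equal, and ESC shares of 26.8% and 20.9%. The proximal share was 9.10% and 13.5% at 2.5 kb, 3.30% and 6.73% at 500 bp, and 6.76% and 10.7% with every transcript of a coding gene as a start. With the widest peaks at equal list length (46601 each), L-EPSC only and D-EPSC only peaks numbered 13324 and 13635, numbers that equal lengths and nearly equal shared peaks bring together by construction (1.02 times, against 1.32 times with all peaks), and the D-EPSC proximal share was 9.39% and its ESC share 10.2%. An ESC peak within 500 bp gave 17.3% and 10.6%. In 200 bp the KLF shares were 6.18% and 2.99%, ESRRB 1.46% and 0.597%, and OTX2 5.44% and 7.64%. Without windows that hold stretches of the B1 repeat, whose letters include TAATCC, OTX2 shares were 9.70% and 12.2%. ESRRB shares were then 2.57% and 1.04%. Windows of 200 kb with state-only peaks of a single state numbered 1590 and 2529, against 3210 and 4929 of 100 kb. The choices of 300 bp for motifs, B1 stretches, every transcript and leaving out chromosome X were made after seeing the data. At 2.5 kb, these named genes are no longer single-list genes: Foxd3, Grhl2, Lefty1, Cyp26a1, Cyp26c1, Wnt6, Foxa2, Hoxb7, Hoxc6, Hoxd4, Accsl, Grm4, Kcnd3, Krt17 and Pcdhb3. No paired analysis was possible because each state has 1 pooled list. The lists' unknown depth limits every count, and leaving out a replicate was not possible.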

Other observations

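Beyond the pathways described above, several large gene families, taken by the start of their symbols, were followed at their starts. Of 94 genes with Kcn symbols, which are potassium channels and their partner proteins, 12 (12.8%) had a start peak in the D-EPSC list only and 0 in the L-EPSC list only, beside 3.87% and 1.21% of all coding genes. The widest were at Kcnmb2 (1229 bp), Kcnd3 (710 bp) and Kcnc2 and Kcnq1 (630 bp each). Of 368 genes with Slc symbols, nearly all solute carriers, 35 (9.51%) were D-EPSC and 5 (1.36%) L-EPSC single-list genes, with the glutamate transporter Slc1a3 at 830 bp and the cystine transporter Slc7a11 at 306 bp on the D-EPSC side, and the dicarboxylate transporter Slc13a2 at 422 bp on the L-EPSC side.

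The share of single-list starts varied among other families, and is to be read against the same 3.87% and 1.21%. Of 367 Zfp zinc finger genes 9 (2.45%) were D-EPSC and 0 L-EPSC single-list genes, and of 95 genes with Rpl or Rps symbols, which are ribosomal proteins but also the S6 kinases and Rps19bp1, 93 had start peaks in both lists and Rpl8 was the single D-EPSC one. Among 1087 olfactory receptor genes, which are closed in most cells, 4 had start peaks in both lists, 7 in the L-EPSC list only (Olfr1358 with 911 bp) and 4 in the D-EPSC list only. Of 50 keratin genes Krt17, Krt71 and Krt222 were L-EPSC single-list genes, with peaks of 434, 125 and 232 bp (6%, from 3 genes), and none was a D-EPSC one. The Krt17 peak was a shared one that reached into the window in the L-EPSC list alone. The clustered protocadherins (24 genes) gave Pcdhb8 for L-EPSC (4.17%) and Pcdhb3 and Pcdhb22 for D-EPSC (8.33%). Of 55 genes with Gria, Grik, Grin, Grm, Gabr or Glr symbols, mostly receptors for glutamate, GABA and glycine but also glutaredoxins and Grina, 6 (10.9%) were D-EPSC and 2 (3.64%) L-EPSC single-list genes. Peaks at near-identical members of these families are uncertain.

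Some of the widest distal state-only peaks lay far from any coding gene. An L-EPSC only peak of 1802 bp at chr1:111224082-111225883 was 653921 bp from the nearest coding start (Cdh7) and 652993 bp from the nearest D-EPSC peak. Another of 1405 bp at chr4:16557774-16559178 was 467682 bp from Ripk2. Both stretches were AT-rich, at 38.5% and 38.8% GC over 400 bp, beside a median of 49.5% in distal L-EPSC only peaks, and had no ESC peak. On the D-EPSC side the widest distal peak, of 1848 bp at chr8:4212939-4214786, lay in an exon of BC068157, 3449 bp from its start. The next widest D-EPSC only peak outside a start was one of 1646 bp at chr11:80947494-80949139 in an intron of Accn1, which encodes an acid-sensing ion channel.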
